A study of Homo sapiens with 12 samples.

Results

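The transcript levels of 10 genes that cells are known to raise under low oxygen were followed in WM-266-4, a human melanoma cell line, among 35579 genes with a transcript in the quantified annotation. The genes were ALDOC, PFKFB4, PFKFB3, HK2, PDK1, SLC2A1, LDHA, BNIP3, VEGFA and CA9. They were chosen by name, with their differences between the groups of these libraries already known, so every value of theirs is a description and carries no test. The measured values that chose them were the within-experiment differences between the transfected groups. The transcripts of each gene were summed to 1 value per library. Each library is bulk RNA, in which fewer cells with a transcript and less of it per cell cannot be told apart.

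The cells carried a stable lentiviral knock-down of TYRO3, a receptor tyrosine kinase, in all groups, and were starved of serum overnight after transfection with a pEZY-myc-his plasmid. The plasmid encoded GFP in the control group by the labels, whereas the paper describes an empty plasmid, so that the exact control is uncertain. It encoded wild-type TYRO3 in the WT group, TYRO3 with the I449A change at its gamma-secretase cleavage site in the ΔGS group, and TYRO3 with the P408A, L409P and G419P changes at its ADAM cleavage sites in the ΔADAM group. Each of 3 experiments held 1 library of each group, which gave 12 libraries and 9 with a TYRO3 plasmid. All groups came from 1 knock-down line, the plasmids were transfected and not at the native locus, and none of the 12 libraries is labelled as kept at low oxygen.

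Hypoxia-inducible factors (HIFs) are dimers of an oxygen-labile alpha subunit and ARNT. When oxygen is low, prolyl hydroxylases no longer mark the alpha subunit for VHL, the dimer accumulates, and it binds short DNA motifs near its targets. Among the best known targets are glucose transporters and glycolytic enzymes, the kinase that closes the entry of pyruvate into mitochondria, the mitophagy receptor BNIP3, the angiogenic ligand VEGFA and the acid-exporting enzyme CA9. Melanoma cells often run these genes at high levels also with oxygen present.

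The core of the motif that HIF dimers bind is ACGTG or GCGTG, and the stretches before the start sites of these genes are shown because the genes are grouped by that factor. RefSeq promoters of GRCh38.p14 (250 bases before and 50 after a start) were available for 9 of the 10 members, with 13 promoters among them. Capitals mark ACGTG or GCGTG on either strand, so that CACGT and CACGC are matches on the other strand, and the palindrome CACGTG is a match on both. The 250 bases before the start of ALDOC and of LDHA hold several matches with ACGTG, and those of PFKFB4 hold a GCGTG match alone.
ALDOC (chr17:28576896-28577145, minus strand): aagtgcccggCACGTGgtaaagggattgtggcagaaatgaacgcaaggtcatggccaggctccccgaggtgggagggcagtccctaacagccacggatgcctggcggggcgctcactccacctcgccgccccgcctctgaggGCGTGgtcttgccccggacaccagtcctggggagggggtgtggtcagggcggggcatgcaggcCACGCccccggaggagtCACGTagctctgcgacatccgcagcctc
LDHA (chr11:18394313-18394562, plus strand): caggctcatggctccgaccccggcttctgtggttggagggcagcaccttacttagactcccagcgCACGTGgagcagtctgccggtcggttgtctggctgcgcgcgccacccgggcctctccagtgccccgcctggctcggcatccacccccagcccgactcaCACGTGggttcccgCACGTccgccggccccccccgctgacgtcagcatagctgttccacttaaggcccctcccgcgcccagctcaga
PFKFB4 (chr3:48556804-48557053, minus strand): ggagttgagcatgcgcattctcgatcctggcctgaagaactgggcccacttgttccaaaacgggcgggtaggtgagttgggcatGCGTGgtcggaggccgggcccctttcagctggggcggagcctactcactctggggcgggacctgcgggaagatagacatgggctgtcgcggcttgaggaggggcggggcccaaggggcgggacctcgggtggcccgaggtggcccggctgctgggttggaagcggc

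In 5 other members 1 ACGTG match each is shown with its flanks, the match alone in capitals.
HK2 (chr2:74834067-74834095, plus strand): aatgggcgtgcgCACGTcactgatccgga
PDK1 (chr2:172556061-172556089, plus strand): cctgctgcccgcCACGTccctcacgtacc
PFKFB3 (chr10:6202812-6202840, plus strand): caccctcctcccCACGTggaagggggctg
BNIP3 (chr10:131982041-131982069, minus strand): gcgcacgcgccgCACGTgccacacgcacc
CA9 (chr9:35673898-35673926, plus strand): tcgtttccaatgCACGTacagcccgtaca

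In all, 8 of the 13 promoters, from 7 members, held ACGTG on either strand, where 21.41% of 35116 promoters of the same length did. GCGTG was in 36.54% of all promoters, CACGTG in 7.256%, and at least 1 of ACGTG and GCGTG in 48.45%, against 12 of the 13 here. These matches are a description of the letters and say nothing on binding in these cells.

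Library totals lay between 4008293 estimated counts, in the GFP library of experiment 1, and 38184838, in the GFP library of experiment 2. The GFP library of experiment 1 was thus the shallowest, and results that rest on it are named below. TYRO3 stood at 47.3 to 56.6 CPM, counts scaled to a common library total, in the GFP libraries and at 1181 to 3694 CPM in the 9 TYRO3 libraries. This separates the GFP libraries from the others and does not check which TYRO3 form a library carried. The summed melanocyte markers reached 1643 to 1989 TPM, which also accounts for transcript length, in GFP and 1068 to 1987 in the TYRO3 libraries. Of the 8, 2 (DCT and MITF) were called lower with TYRO3 by edgeR, where 3.31% of all genes tested were called. By fitted value 7 of the 8 were below 0 and 1, TYRP1, was above. The 6 fibroblast markers summed to 74.1 to 96.9 TPM in GFP and 49.0 to 76.4 TPM with TYRO3. LUM made up most of these sums, with a mean of 55.6 TPM over the 12 libraries. Of the 6 it alone was called, lower, against 3.31% of all genes tested. By fitted value 4 of the 6 were below 0 and 2 above, COL1A1 among the latter. Endothelial, leukocyte and epithelial markers summed to at most 5.35 TPM. None of DCT, MITF and LUM was called without the GFP library of experiment 1, with the batch term or with a term for each experiment. Calls over all genes also fell without that library, from 500 to 1 with the batch term. With a term for each experiment they fell from 857 to 384. The part of these marker shifts in the results was not tested. The ΔGS library of experiment 3 held the most GAPDH (4808 CPM) and the least HIF1A (590 CPM) of the 12.

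The 10 genes differed widely in abundance, and VEGFA took a higher place among them with TYRO3. Per transcript length, LDHA stood first in the GFP libraries at 1521 ± 68.4 TPM (SD, n = 3), apart from SLC2A1 at 61.6 ± 6.52 TPM. BNIP3 (38.8 TPM), PFKFB4 (31.3 TPM) and PFKFB3 (30.9 TPM) followed with ranges that overlapped from 1 to the next, then HK2 (26.1 TPM) and VEGFA (24.4 TPM), whose ranges also overlapped. ALDOC (16.5 TPM) and PDK1 (12.03 TPM) overlapped below them, and CA9 was at or near 0. In the TYRO3 libraries VEGFA moved from the seventh to the third place at 62.8 ± 16.8 TPM (SD, n = 9), where its range overlapped with those of SLC2A1 and BNIP3.

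**Figure D1:**
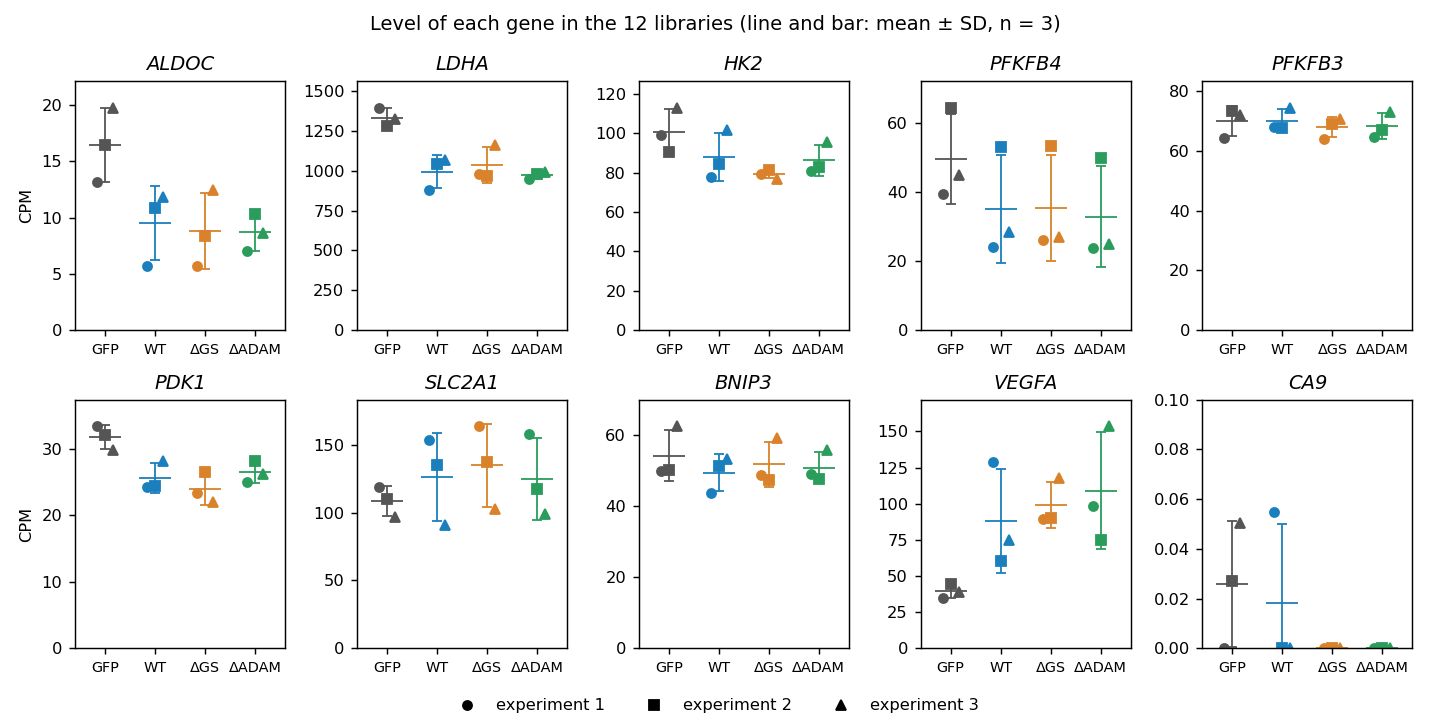
CPM of each of the 10 genes (y axis, from 0, a scale of its own per panel) in the GFP, WT, ΔGS and ΔADAM groups (x axis), with 1 point per library, its shape giving the experiment, and a line and bar for the mean ± SD (n = 3). The VEGFA points of the TYRO3 groups, 60.1 to 153.6 CPM, all sit above the GFP points, and those of ALDOC, LDHA and PDK1 all sit below. Of the genes tested, 5.03% had all TYRO3 libraries above all GFP libraries and 5.21% had all below.

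With a TYRO3 plasmid, VEGFA was more abundant by CPM and ALDOC was less abundant. The fitted values of PFKFB4, LDHA, PDK1 and HK2 were also below 0 but not past the call rule, and that of PDK1 was not below 0 by TPM. On the log2 scale of the fit, the mean of the WT, ΔGS and ΔADAM groups differed from GFP by 1.29 for VEGFA, -0.88 for ALDOC, -0.54 for PFKFB4, -0.42 for LDHA, -0.32 for PDK1 and -0.26 for HK2. SLC2A1 differed by 0.22, BNIP3 by -0.10 and PFKFB3 by -0.02. The 9 members that passed the filter on low counts thus did not share 1 direction.

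In this comparison 2 of the 9 members that passed the filter, VEGFA and ALDOC, were past the call rule. It asked for more than a 1.5-fold difference and a Benjamini-Hochberg adjusted p-value no higher than 0.05 from the quasi-likelihood test of edgeR, fitted with a term for the batch of experiment 1. By the same rule 3.31% of the 15098 genes tested were called. None was called in WT against GFP (0.0397% of all genes) or in ΔGS against GFP (0.457%), and VEGFA and ALDOC were called in ΔADAM against GFP (1.11%). With a term for each experiment, ALDOC was called in WT against GFP (2.35% of all genes), ALDOC and VEGFA in ΔGS (4.69%), ALDOC, VEGFA and PFKFB4 in ΔADAM (5.19%), and ALDOC and VEGFA for the mean of the 3 groups (5.68%). DESeq2 with the batch term called 2 of the members in each of these 4 comparisons with GFP. Over all genes it called 376 in WT, 609 in ΔGS, 670 in ΔADAM and 752 for the mean of the 3 groups. With the batch term the p-values rest on a spread that includes differences between experiments 2 and 3. With a term for each experiment they rest on what is left after the shifts common to an experiment. Both spreads are pooled over the 4 groups. Since the members were chosen on these contrasts, nothing is read from these counts. The comparisons with GFP also share the same 3 GFP libraries.

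The median log2 fold change over the 9 members was -0.20 in WT, -0.34 in ΔGS, -0.22 in ΔADAM and -0.26 for the mean of the 3 groups, where the median over all genes tested was within 0.01 of 0 in each. The median of WT was -0.12 without the GFP library of experiment 3 and -0.30 without the WT library of experiment 3. That of ΔADAM was -0.14 without the GFP library of experiment 3, and that of ΔGS was -0.22 without the ΔGS library of experiment 3 in the fit with a term for each experiment. CA9, at or near 0, did not pass the filter and is not in these medians.

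ALDOC (ENSG00000109107, chr17:28573115-28577264 on the minus strand, GRCh38) encodes the brain-type aldolase, which splits fructose bisphosphate into triose phosphates. Its level was 13.2, 16.5 and 19.8 CPM in the GFP libraries of experiments 1, 2 and 3. It was 5.71, 10.9 and 11.9 CPM with WT, 5.67, 8.37 and 12.4 CPM with ΔGS, and 7.02, 10.3 and 8.66 CPM with ΔADAM. All 9 TYRO3 libraries lay below all 3 GFP libraries, a pattern that 5.21% of the genes tested showed. Within experiments the log2 ratio of CPM + 1 to GFP ran from -1.10 to -0.55. The fitted log2 fold changes were -0.82, -0.91 and -0.90 in WT, ΔGS and ΔADAM, each with an SE of 0.19. The protein-coding transcript ALDOC-201 held 77.1% of the TPM of the gene over the 12 libraries, at 5.39, 14.3 and 18.5 TPM in the GFP libraries and a mean of 7.52 TPM with TYRO3, so that its level in the GFP library of experiment 1 was not above the TYRO3 mean. A protein-coding gene on the same strand, AC005726.1, overlaps ALDOC and stood at 5.81 TPM, so reads of the shared part may be divided between them. Without the GFP library of experiment 1 the value for the mean of the 3 groups was -0.78, and without that of experiment 3 it was -0.83. Without either of them ALDOC was no longer past the call rule, although with a term for each experiment it was past it whichever library was left out. Over all genes, calls with the batch term also fell without the GFP library of experiment 1, from 500 to 1.

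LDHA (ENSG00000134333, chr11:18394388-18408425, plus strand) encodes the muscle-type subunit of lactate dehydrogenase, which reduces pyruvate to lactate. It was the most abundant member, at 1398, 1282 and 1328 CPM in the GFP libraries of experiments 1 to 3. The level was 879, 1045 and 1066 CPM with WT, 979, 968 and 1166 CPM with ΔGS, and 947, 981 and 992 CPM with ΔADAM. No TYRO3 library reached the lowest GFP library, a pattern of 5.21% of the genes tested. The log2 fold change was -0.43 in WT, -0.37 in ΔGS and -0.46 in ΔADAM (SE 0.10 each), less than the 1.5-fold of the call rule. LDHA has 25 transcripts, of which LDHA-203 held 36.9% of the TPM. LDHA-206, LDHA-223, which is annotated as a target of nonsense-mediated decay, and LDHA-221 held 21.1%, 21.0% and 15.96%. The 6 processed pseudogenes with its name in the files stood at no more than 0.72 TPM each.

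HK2 (ENSG00000159399, chr2:74833981-74893359, plus strand) encodes a hexokinase, which traps glucose in the cell as its phosphate. It stood at 99.2, 90.6 and 113.1 CPM with GFP, at 77.7, 84.4 and 101.6 CPM with WT, at 79.4, 81.5 and 77.1 CPM with ΔGS, and at 80.7, 82.9 and 95.5 CPM with ΔADAM. The groups overlapped, since the WT and ΔADAM libraries of experiment 3 were above the GFP library of experiment 2. Within experiments all 9 ratios were below 0, from -0.55 to -0.10, as they were for 13.8% of the genes tested. The lowest of the 9 belonged to ΔGS of experiment 3.

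PFKFB4 and PFKFB3 make and break the fructose bisphosphate isomer that activates phosphofructokinase, the committed step of glycolysis. PFKFB4 (ENSG00000114268, chr3:48517684-48562015, minus strand) was at 39.5, 64.3 and 44.7 CPM in the GFP libraries of experiments 1, 2 and 3. Its level was 23.9, 52.8 and 28.2 CPM with WT, 25.9, 53.1 and 27.0 CPM with ΔGS, and 23.6, 49.7 and 25.0 CPM with ΔADAM. In all 4 groups the library of experiment 2 was the highest, so that the groups overlapped across experiments. All 9 within-experiment ratios were below 0, from -0.82 to -0.27, as they were for 13.8% of the genes tested. The mean ratio was -0.67, -0.30 and -0.72 in experiments 1, 2 and 3. The log2 fold change of the mean of the 3 groups was -0.54 with an SE of 0.26, and -0.57 with an SE of 0.08 once each experiment had its own term. In ΔADAM the same term moved the value from -0.61 to -0.64 (SE 0.32 and 0.10), and PFKFB4 was then past the call rule. UCN2, which overlaps PFKFB4 on the same strand, stood at 10.7 TPM.

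PFKFB3 (ENSG00000170525, chr10:6144934-6254644, plus strand) had the smallest mean ratio of the 9 members that passed the filter, at -0.02 ± 0.08 (SD, n = 3 experiments). It stood at 64.2, 73.4 and 72.1 CPM with GFP, and the 9 TYRO3 libraries ran from 64.1 to 74.4 CPM with a median of 68.1. The within-experiment ratios lay between -0.13 and 0.08, with 4 above 0 and 5 below. In experiment 2 all 3 were below 0. The transcript PFKFB3-205 held 72.0% of its TPM.

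PDK1 (ENSG00000152256, chr2:172555373-172608669, plus strand) encodes a pyruvate dehydrogenase kinase, which shuts the complex that feeds pyruvate to the citric acid cycle. By CPM it was at 33.4, 32.0 and 29.8 with GFP, 24.3, 24.4 and 28.2 with WT, 23.4, 26.6 and 21.95 with ΔGS, and 25.0, 28.1 and 26.3 with ΔADAM. All TYRO3 libraries lay below all GFP libraries on that scale, as they did for 5.21% of the genes tested. The direction was not kept in TPM, which divides by transcript length. PDK1 was at 9.61, 14.3 and 12.2 TPM with GFP, 10.1, 13.3 and 14.3 TPM with WT, 12.2, 12.9 and 9.27 TPM with ΔGS, and 10.9, 11.9 and 13.01 TPM with ΔADAM. Of the 9 TPM ratios 5 were above 0 and 4 below, and their mean over experiments was 0.0 ± 0.17 (SD, n = 3) against -0.32 ± 0.12 by CPM. The mean length of its transcripts, weighted by TPM, was 3980 ± 578 bases (SD, n = 3) with GFP and 3399 ± 318 bases (SD, n = 9) with TYRO3, and shorter than in GFP of the same experiment in 8 of 9 libraries. In the GFP library of experiment 1 it was 4646 bases, and PDK1-202 was listed at 0 TPM there.

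**Figure D2:**
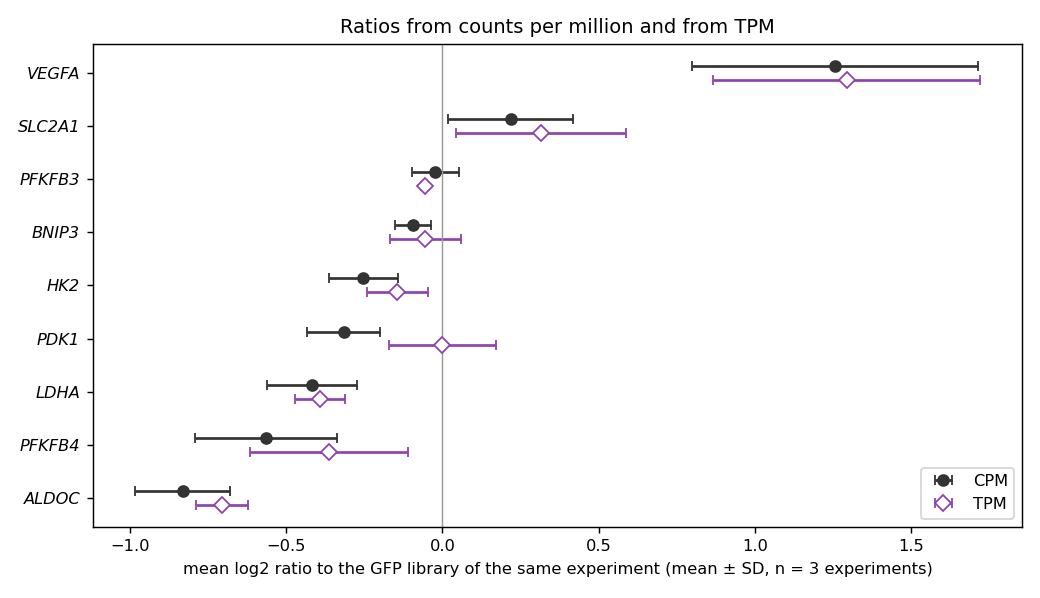
Mean log2 ratio to the GFP library of the same experiment (x axis, mean ± SD over 3 experiments, with 1 added to each value) for 9 genes (y axis), from CPM (filled circles) and from TPM (open diamonds). PDK1 moves from -0.32 by CPM to 0.0 by TPM, while VEGFA, SLC2A1, LDHA, PFKFB4, HK2 and ALDOC stay on their side of 0.

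SLC2A1 (ENSG00000117394, chr1:42925375-42959176, minus strand) encodes the glucose transporter GLUT1. It stood at 119.1, 109.8 and 96.5 CPM in the GFP libraries of experiments 1, 2 and 3. It was at 153.5, 134.8 and 90.5 CPM with WT, 163.5, 137.5 and 102.8 CPM with ΔGS, and 157.8, 117.6 and 98.5 CPM with ΔADAM. The groups overlapped, and 8 of 9 within-experiment ratios were above 0, the exception being WT of experiment 3 at -0.09. The mean ratio differed between experiments, at 0.41 in experiment 1, 0.24 in experiment 2 and 0.01 in experiment 3. Most of its TPM (75.1%) was assigned to SLC2A1-208, a transcript annotated as a target of nonsense-mediated decay, and 22.7% to the protein-coding SLC2A1-203.

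BNIP3 (ENSG00000176171, chr10:131966455-131982013, minus strand) encodes an outer-membrane receptor that marks mitochondria for mitophagy. It was at 49.97, 50.2 and 62.5 CPM with GFP, and the 9 TYRO3 libraries ran from 43.7 to 59.1 CPM with a median of 49.1. The groups overlapped, and 8 of 9 within-experiment ratios were below 0, from -0.23 to 0.03. The log2 fold change of -0.10 (SE 0.10) was no larger than its SE and turned to 0.0016 without the GFP library of experiment 3. The highest of its pseudogenes by name, BNIP3P11, stood at 1.64 TPM against 37.6 TPM for BNIP3.

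VEGFA (ENSG00000112715, chr6:43770184-43786487, plus strand) encodes the vascular endothelial growth factor that drives vessel growth. It stood at 35.0, 44.4 and 38.9 CPM with GFP. The level was 128.9, 60.1 and 75.0 CPM with WT, 89.7, 90.4 and 117.8 CPM with ΔGS, and 98.6, 74.9 and 153.6 CPM with ΔADAM, in the order of the experiments. All 9 TYRO3 libraries were above all 3 GFP libraries, as they were for 5.03% of the genes tested. The ratios within experiments were all above 0, from 0.43 to 1.95, a pattern of 12.7% of the genes tested. The fitted fold over GFP was 2.17 in WT, 2.48 in ΔGS and 2.73 in ΔADAM. The spread between experiments was wide, with mean log2 ratios of 1.55, 0.73 and 1.49 in experiments 1, 2 and 3. Of its 32 transcripts 13 were above 0 in some library, and the most abundant, VEGFA-205, had a mean of 5.08 TPM with GFP and 16.6 TPM with TYRO3. The means were 6.33 and 13.5 TPM for VEGFA-206, 4.34 and 11.2 TPM for VEGFA-225, and 3.58 and 10.2 TPM for VEGFA-215, a transcript with a retained intron. The log2 value of 1.29 (SE 0.27) was 1.18 without the GFP library of experiment 1, 1.41 without that of experiment 2 and 1.29 without that of experiment 3, and past the call rule in none of these fits. With a term for each experiment it was 1.13 and 1.08 without the GFP library of experiment 1 or 3, also not past the rule. Without the GFP library of experiment 1, calls over all genes also fell, from 500 to 1 with the batch term. With a term for each experiment they fell from 857 to 384.

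CA9 (ENSG00000107159, chr9:35673856-35681159, plus strand) encodes a carbonic anhydrase of the cell surface and is often used as a marker of low oxygen. It was not detected beyond single reads: 1 count each was assigned in the GFP libraries of experiments 2 and 3 and in WT of experiment 1, and 0 counts in the other 9 libraries. A count of 0 allows up to 3 counts per library, so no fold change is given. ARHGEF39, on the opposite strand, overlaps CA9 and stood at 21.4 TPM.

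**Figure D3:**
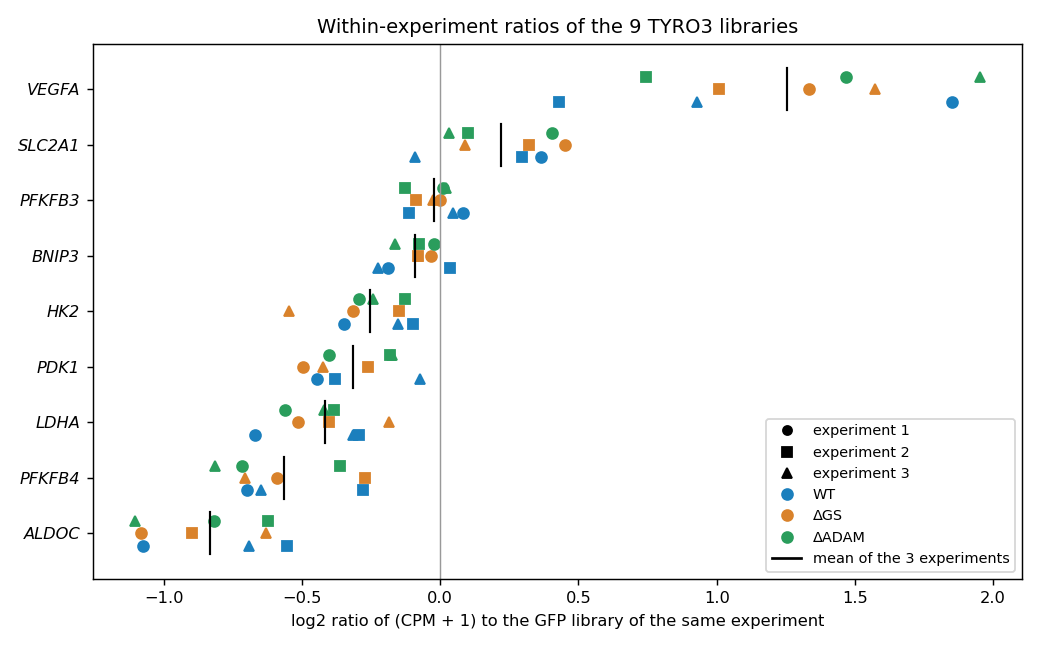
Log2 ratio of CPM + 1 in each of the 9 TYRO3 libraries to the GFP library of the same experiment (x axis) for 9 genes (y axis), coloured by group and shaped by experiment, with a line at the mean of the 3 experiments. VEGFA lies above 0 in all 9 (0.43 to 1.95), ALDOC, PFKFB4, LDHA, PDK1 and HK2 lie below 0 in all 9, and PFKFB3 straddles 0. Of the genes tested, 12.7% had all 9 ratios above 0 and 13.8% had all 9 below.

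WT was compared with the cleavage-site mutants, and the mutants with each other. Over all genes, none was called in WT against the mean of ΔGS and ΔADAM or in ΔGS against ΔADAM (0.0% of 15098 in each, by edgeR with either term). At an unadjusted p-value under 0.05 there were 119 genes in each of these comparisons with the batch term, and 237 and 216 with a term for each experiment. DESeq2 called 1 gene in each with the batch term, and 5 and 1 with a term for each experiment. Where no gene differs, a share of 0.05 of the 15098 genes would have an unadjusted p-value under 0.05, and the edgeR counts were lower. The edgeR tests may thus have been too strict to call genes here. Among the members, the largest difference between WT and the mean of both variants was that of VEGFA, at a log2 value of -0.26 with an SE of 0.26. For ALDOC it was 0.09 with an SE of 0.16, for HK2 0.08 with an SE of 0.10, and for the other 6 it lay between -0.06 and 0.04. ΔGS and ΔADAM differed by -0.14 for VEGFA (SE 0.29), -0.14 for PDK1 (SE 0.11), -0.12 for HK2 (SE 0.11) and 0.12 for SLC2A1 (SE 0.16). Within experiments the VEGFA difference between WT and both variants was -0.28 ± 0.66 (SD, n = 3), a spread wider than the difference. PFKFB4 differed between ΔGS and ΔADAM by 0.11, with an SE of 0.31 that fell to 0.10 with a term for each experiment, and within experiments by 0.11 ± 0.02 (SD, n = 3). None of the members was called in these comparisons, which does not show that the forms act alike.

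Centred within experiments, most members moved with the step between the GFP and TYRO3 libraries, up or down. They were chosen with these differences known, so the r values among them follow in part from the choice and are a description. Of all genes tested, 12.7% had all 9 within-experiment ratios above 0 and 13.8% had all 9 below. Correlations between pairs of other genes were not computed. Over the 36 pairs of 9 members the median Pearson r across the 12 libraries was 0.112, from -0.941 for PFKFB4 with VEGFA to 0.951 for ALDOC with LDHA, and 21 pairs were above 0. ALDOC with PFKFB4 (0.905), PFKFB4 with LDHA (0.902) and HK2 with PDK1 (0.891) also ran together, and SLC2A1 ran against PDK1 (-0.883). These values share the libraries, their depth and the step between GFP and TYRO3, and PFKFB3 stood outside them, with r to the other 8 from -0.441 to 0.302. Genes whose levels closely resembled the mean of the standardised members over the 12 libraries were RNF24 (r = 0.978), GPR155 (0.971), XRCC5 (0.969) and OGDH (0.968). That mean does not stand for all members. VEGFA (-0.894) and SLC2A1 (-0.608) ran against it, and PFKFB3 was at 0.232. BNIP3, PDK1, HK2, LDHA, ALDOC and PFKFB4 ran with it, from 0.625 to 0.938.

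The other genes of these pathways, which were not among the members, were tested over all genes, in lists chosen with earlier results of these data known. In 9 such lists, 11 of 104 tested genes were called for the mean of the 3 TYRO3 groups against GFP, 6 higher and 5 lower, where 3.31% of all genes were called. Among 17 tested enzymes of glycolysis outside the members, none was called, and the median log2 fold change was -0.23 with 14 of 17 below 0, where the median over all genes was within 0.01 of 0. At an unadjusted p-value under 0.05 there were 9 of them, where 3655 of all 15098 genes were. DESeq2 called 1 of the 17, and 752 over all genes. PFKM (-0.44, SE 0.08), PGAM1 (-0.41, SE 0.09) and PFKL (-0.33, SE 0.08) had an adjusted p-value of 0.0144, 0.0295 and 0.0334 in edgeR but a fold change under 1.5, and were picked out after their values were seen. GAPDH, the most abundant at 4747 TPM, differed by -0.10 (adjusted p = 0.635, edgeR). HKDC1, a hexokinase relative, was called only with a term for each experiment (1.16, SE 0.34, adjusted p = 0.0396, edgeR), and with that term in 4 of the 12 fits that left out a library. Without the GFP library of experiment 1, where it stood at 0.263 CPM, its value was 0.952 (adjusted p = 0.113).

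Among genes that control pyruvate dehydrogenase, 2 of 10 were called lower and none higher, against 3.31% of all genes called. PDK3 was at 17.1, 18.2 and 16.99 CPM with GFP and at 7.73 to 14.0 CPM with TYRO3, a log2 fold change of -0.63 (SE 0.14, adjusted p = 0.0282, edgeR). PDK4 was at 24.5, 55.2 and 43.5 CPM with GFP and at 6.32 to 41.2 CPM with TYRO3, so that the groups overlapped, with a log2 fold change of -0.91 (SE 0.22, adjusted p = 0.0387, edgeR). Both encode kinases of the same complex as PDK1, and neither was called without the GFP library of experiment 1 in either fit. Over all genes, calls in these fits fell from 500 to 1 and from 857 to 384. PDK2, a further kinase picked out after its values were seen, was not called. It was above GFP in 7 of 9 within-experiment ratios by CPM and in 9 of 9 by TPM. PDHB, a subunit of the complex picked out after its value was seen, differed by -0.53 (adjusted p = 0.0174, edgeR), less than 1.5-fold, and PDHA1, the most abundant at 240.3 TPM, by -0.07 (adjusted p = 0.769). None of 4 other tested genes that set fructose bisphosphate levels was called by edgeR or DESeq2. An unadjusted p-value under 0.05 was found for 3655 of all 15098 genes and for 0 of these 4. TIGAR, the most abundant of them, differed by 0.01 (adjusted p = 0.988, edgeR).

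Of 11 glucose and lactate transporters tested, 2 were called lower and none higher, against 3.31% of all genes called. SLC2A3 (0.12, adjusted p = 0.358, edgeR) and SLC2A10 (1.05, adjusted p = 0.123) were above GFP in all 9 within-experiment ratios of CPM (12.7% of all genes) without being called. By TPM each was above in 7 of 9, and SLC2A10 stood at 0.0, 0.701 and 0.607 CPM with GFP. SLC2A4, SLC2A6, SLC2A12, SLC2A13 and SLC16A7 were below GFP in all 9 ratios of CPM (13.8% of all genes). SLC2A3, SLC2A10, SLC2A12 and SLC16A7 were picked out after their values were seen. SLC2A4, which encodes the insulin-responsive glucose transporter, stood at 3.42, 2.94 and 2.43 CPM with GFP and at 0.826 to 1.95 CPM with TYRO3, with a log2 fold change of -1.18 (SE 0.22, adjusted p = 0.0165, edgeR). SLC2A6 stood at 20.8, 22.9 and 17.7 CPM with GFP and at 5.46 to 14.8 CPM with TYRO3, a difference of -1.10 (SE 0.22, adjusted p = 0.0212). Neither overlapped between the groups, and 5.21% of the genes tested had all TYRO3 libraries below all GFP libraries. BSG, a chaperone of lactate transporters and the most abundant of the list, differed by 0.06 (adjusted p = 0.755). SLC2A13, an inositol transporter, was called in ΔGS and in ΔADAM with a term for each experiment, and for the mean of the 3 groups it was below 1.5-fold (-0.57).

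Of 13 HIF pathway components, EPAS1 alone was called, against 3.31% of all genes. EPAS1, which encodes the HIF alpha subunit HIF2A, stood at 4.21, 3.67 and 3.44 CPM with GFP. It was at 24.9, 6.47 and 7.24 CPM with WT, 17.02, 7.98 and 7.87 CPM with ΔGS, and 18.9, 7.24 and 11.7 CPM with ΔADAM. All 9 TYRO3 libraries were above all GFP libraries (5.03% of all genes), and the libraries of experiment 1 were the highest of each TYRO3 group. The log2 fold change was 1.41 (SE 0.24, adjusted p = 0.0144, edgeR) and 1.37 (adjusted p = 0.00455) with a term for each experiment. HIF1A, the alpha subunit known for glycolytic targets, differed by -0.18 (SE 0.16, adjusted p = 0.538), ARNT by -0.28 (adjusted p = 0.201) and VHL by 0.29 (adjusted p = 0.0858). In mean TPM over the 12 libraries HIF1A stood at 411.2 and EPAS1 at 4.11.

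Of 28 other genes known to respond to low oxygen, 4 were called higher and none lower, against 3.31% of all genes called. BNIP3L, a mitophagy receptor, had an adjusted p of 0.0253 in edgeR at -0.51, a fold change under 1.5. It was picked out after its values were seen, as were BHLHE40 (-0.52, adjusted p = 0.12), PLOD2 (-0.38, adjusted p = 0.103) and WSB1 (-0.34, adjusted p = 0.212). All 4 were below GFP in all 9 within-experiment ratios of CPM (13.8% of all genes) without being called, and WSB1 in 7 of 9 by TPM. KDM4B and MXI1 were also below in all 9 by CPM, while DDIT4 and LOXL2 were above in all 9 (12.7% of all genes). None of these was called. STC2, a secreted glycoprotein, stood at 8.42, 12.2 and 13.5 CPM with GFP and at 28.4 to 139.2 CPM with TYRO3, the largest difference of these lists at a log2 value of 2.65 (SE 0.50, adjusted p = 0.0173, edgeR). NDUFA4L2, a mitochondrial protein that lowers respiration, was at 0.526, 0.243 and 0.607 CPM with GFP and at 0.995 to 2.49 CPM with TYRO3 (1.89, SE 0.46, adjusted p = 0.0376). NDRG1, a stress-responsive gene, rose by 0.68 (SE 0.15, adjusted p = 0.0259, edgeR). The median of the list was -0.07, with 17 of 28 below 0. DDIT4, the most abundant at 159.4 TPM, differed by 0.74 (adjusted p = 0.0943). BNIP3L, the closest relative of BNIP3, had a log2 fold change of -0.51 (adjusted p = 0.0253, edgeR), under 1.5-fold. It was also picked out after its value was seen. None of the 7 other mitophagy genes tested was called by edgeR or DESeq2. An unadjusted p-value under 0.05 was found for 3655 of all 15098 genes and for 2 of these 7. PHB2, their most abundant, differed by -0.09 (adjusted p = 0.703).

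Among 9 VEGF ligands and receptors other than VEGFA, 1 was called higher and 1 lower, against 3.31% of all genes called. FLT1, a receptor of VEGFA, stood at 28.1, 19.4 and 28.97 CPM with GFP and at 31.5 to 65.2 CPM with TYRO3 (0.79, SE 0.21, adjusted p = 0.0477, edgeR). PGF, a ligand of FLT1, was at 22.1, 23.8 and 27.2 CPM with GFP and at 10.96 to 24.2 CPM with TYRO3 (-0.63, SE 0.15, adjusted p = 0.0348). With a term for each experiment KDR (0.73, adjusted p = 0.00521) and NRP1 (0.66, adjusted p = 0.00717) were also called, and without it they were at adjusted p-values of 0.162 and 0.165. Both encode VEGF receptors, and they were named after their values were seen. NRP2, the most abundant at 117.9 TPM, differed by -0.55 (adjusted p = 0.0144) and the ligand VEGFB by -0.50 (adjusted p = 0.046), both less than 1.5-fold. None of the 5 tested carbonic anhydrases other than CA9 was called by edgeR or DESeq2. An unadjusted p-value under 0.05 was found for 3655 of all 15098 genes and for 0 of these 5. CA14, their most abundant, differed by -0.30 (adjusted p = 0.501, edgeR).

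**Figure D4:**
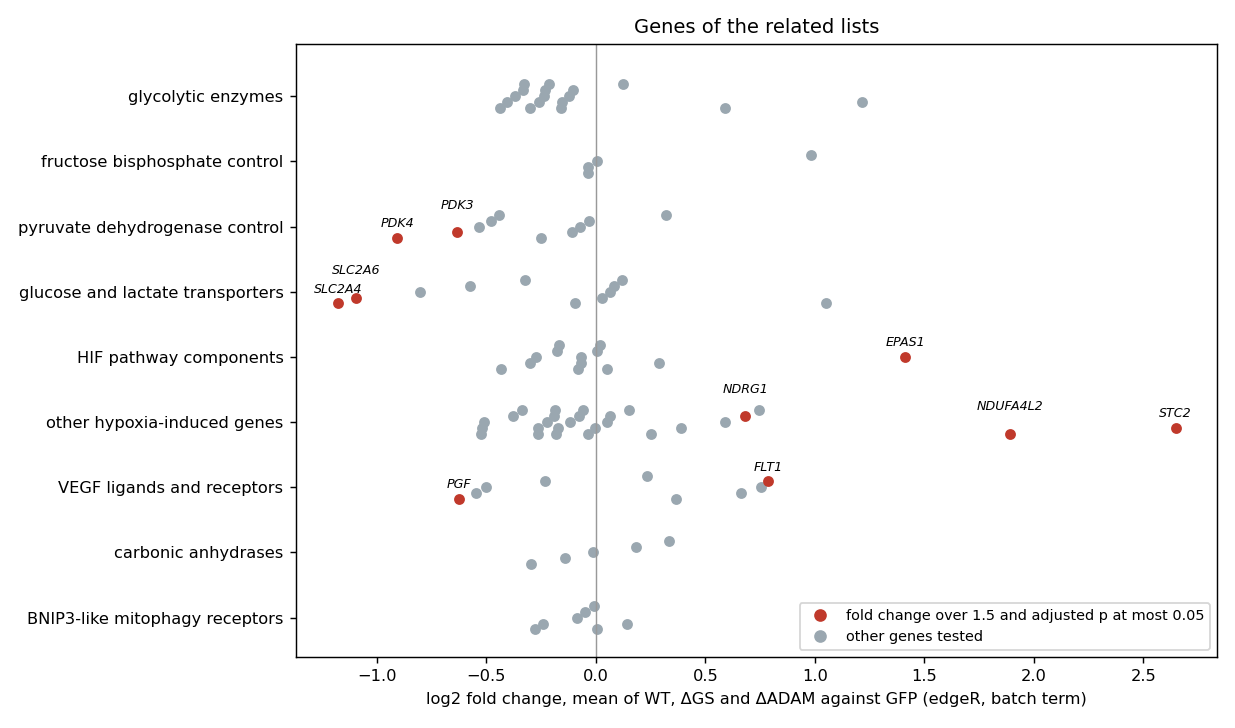
Log2 fold change of the mean of WT, ΔGS and ΔADAM against GFP (x axis) for the tested genes of 9 related lists (y axis), with 10 of the 11 called genes in red and named and the other not drawn. EPAS1 (1.41) and STC2 (2.65) are far to the right and SLC2A4 (-1.18) and SLC2A6 (-1.10) to the left. Of 17 glycolytic enzymes 14 are below 0, and the median of the 17 is -0.23.

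These list calls rested on the GFP libraries, and calls over all genes also fell without the GFP library of experiment 1. Over all genes they fell from 500 to 1 with the batch term, and from 857 to 384 with a term for each experiment. Nothing particular to the list genes is read from the losses. Without the GFP library of experiment 1, 0 of the 11 were called, without that of experiment 2 only EPAS1, and without that of experiment 3 it was 3 of the 11, EPAS1, SLC2A4 and SLC2A6. With a term for each experiment 14 genes were called, and 8 of them without the GFP library of experiment 1, among them EPAS1, FLT1, KDR, NDUFA4L2, SLC2A4, SLC2A6 and STC2. Leaving out 1 of the 9 TYRO3 libraries left 4 to 11 of the 11 called.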

How the data were processed

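RNA of 12 libraries, 4 groups in each of 3 experiments, was enriched for polyadenylated transcripts and sequenced in pairs on a stranded library. The authors trimmed the reads and quantified them with kallisto 0.46.0 on Ensembl 96 (GRCh38). Per the file headers, the deposited values are estimated counts and TPM for each of 188753 transcripts, before the batch correction described in the methods. Groups and experiments were taken from the sample labels.

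Here estimated counts were summed per gene by GENCODE 29, which matched 169797 transcripts (18956 were not matched and stayed out), and rounded. CPM used TMM library sizes, and TPM were summed per gene. Genes passed edgeR's filter at a minimum count of 10 and total of 15, which left 15098 of 35579. Depth ran from 4008293 to 38184838 counts per library, which limits the GFP library of experiment 1 the most. The members and lists were chosen with earlier results of these data known.

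All 12 libraries were fitted in edgeR 4.0.16 (R 4.3.3) by the quasi-likelihood test, with Benjamini-Hochberg adjustment over all genes, 4 groups and a term for the batch of experiment 1, as the methods of the study correct that batch. A gene was called where it differed by more than 1.5-fold with an adjusted p-value no higher than 0.05. Ratios within experiments added 1 to each value. Experiment numbers pair the samples, since libraries of 1 experiment deviated together from their group means, with r of at least 0.178, 0.308 and 0.332 in experiments 1, 2 and 3. Fits with a term for each experiment were therefore given where they changed a call. On simulated counts of 15098 genes for the mean of the 3 TYRO3 groups against GFP, 81 of 100 genes changed 2-fold and 90 of 100 changed 4-fold were recovered, with 8 false calls. The simulated counts held no differences between experiments, and their spread came from a fit with a term for each experiment. Recovery by the fit with the batch term may therefore be lower in the real data. Alternatives were DESeq2 1.42.0, RLE scaling, no filter, no batch term, no fold threshold, experiments 2 and 3 alone, and each library left out. DESeq2 with a term for each experiment, libraries left out of the fit with that term, and TPM ratios were added after seeing the data. From the other lists, the text names at most 4 genes called in any comparison with GFP, by the smallest adjusted p-value for the mean of the 3 groups, with the most abundant gene. It also names HIF1A, EPAS1, ARNT, VHL, and the 5 genes most like the members' mean. Among all these, 2 genes are not reported here. Motifs were searched in RefSeq promoters of GRCh38.p14.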

Additional observations from a re-analysis of the deposited data

How the results depend on the processing

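For the mean of the 3 TYRO3 groups, 7 of the 9 tested members kept the direction of their difference in every fit to counts. BNIP3 was at -0.1809 without the GFP library of experiment 2 and at 0.0016 without that of experiment 3, and PFKFB3 at 0.0226 with pairing and without the GFP library of experiment 2. The number of genes called over all genes moved far more, and the causes were not tested. In the order WT, ΔGS, ΔADAM, mean of the 3 groups, it was 6, 69, 168 and 500 in the fit with the batch of experiment 1. It was 376, 609, 670 and 752 with DESeq2, 562, 765, 879 and 933 with no filter, and 3, 4, 5 and 19 with no batch term. With experiments 2 and 3 alone it was 47, 189, 218 and 324, and with no fold threshold the mean of the 3 groups had 986. Pairing by a term for each experiment gave 355, 708, 784 and 857 genes, and 610, 830, 875 and 898 with DESeq2. For WT against both variants and ΔGS against ΔADAM it was 0 and 0 in the main comparison and with pairing, 1 and 1 with DESeq2, 6 and 5 with no filter, and 5 and 1 with DESeq2 and pairing. Leaving out 1 library in turn, with the batch term or with pairing, gave 1 to 606, 1 to 777, 1 to 870 and 1 to 974 genes, and 0 to 1 for ΔGS against ΔADAM. The members' median then ran from -0.3952 to -0.2213 in ΔGS and from -0.0581 to 0.0594 for ΔGS against ΔADAM. With no batch term neither VEGFA nor ALDOC was called, nor any gene of the other lists. Depth limits the GFP library of experiment 1, without which 1 gene was called for the mean of the 3 groups with the batch term and 384 with pairing.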
